A study of Mus musculus with 2 samples.

Results

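Dividing monocytes and macrophages were examined among leukocytes sorted from mouse melanomas. They numbered 153 cells of the 7188 monocytes and macrophages and of the 22490 cells kept in all. The cells were chosen by their own counts of unique molecular identifiers (UMIs, each standing for 1 captured transcript). A cell entered when 300 genes or more were detected in it, mitochondrial UMIs made up 10% or less, and it held 5 or more UMIs of Lyz2 (lysozyme) and 1 or more of Csf1r (the receptor for macrophage colony-stimulating factor). It had 0 UMIs of the lymphocyte and dendritic cell genes Cd3e, Cd79a and Flt3, at most 1 of Cd209a and at most 1 of Xcr1 and Clec9a together. These 7188 cells are called the monocyte and macrophage gate. Of them, a cell with at least 3 UMIs of Mki67 and Top2a together was counted as cycling, and the other 7035 are called the rest of the gate.

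Macrophages in tumours come from blood monocytes that enter the tissue and mature, and also from macrophages that divide in place. A dividing cell first makes the enzymes of DNA replication in S phase, then the kinases, cyclins and spindle proteins of G2 and mitosis. Mki67, a protein that coats mitotic chromosomes, and Top2a, the topoisomerase that untangles replicated DNA, are both highest late in the cycle, so a rule built on them favours G2 and M cells. Trex1 encodes a DNA-degrading enzyme of the cytosol, and cells that lack it accumulate DNA that triggers the cGAS and STING sensors and type I interferon.

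The mice were males aged 8 to 12 weeks that carried 1 copy of a Cre recombinase switched on by tamoxifen in cells of all types (R26CreERT2 ki/wt). In the Trex1 iKO group both Trex1 alleles were floxed (Trex1 fl/fl), and in the Trex1 control group 1 allele was floxed and 1 was wild type, so the controls may lose 1 copy and are not wild type. Both groups received 1000 B16-F10 melanoma cells in Matrigel in the skin of both legs and 1 mg tamoxifen a day for 3 days from day 5, and tumours were taken at day 14. Live CD45+ leukocytes were enriched on beads and sorted, and 4 hashtagged samples per genotype were run as 1 pool per genotype, so an effect of the pool and one of the genotype cannot be told apart. The labels do not say that each sample is 1 mouse, and the p-values below measure only the spread between these samples. Of the 4 iKO samples, iKO 1 and iKO 2 stood apart from iKO 3 and iKO 4. Over the gate's summed counts the chi-square per degree of freedom was 42.6 to 63.7 between these pairs and 6.97 and 4.59 within them. In iKO 1 and iKO 2 cycling CD8 T cells also made up the largest share of kept cells, at least 15.2%, against 0.798% to 6.37% in the other samples. Values without iKO 1 or iKO 2 are given for only a part of the results, so a result without such a value is not thereby stable.

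Trex1 itself had 0 UMIs in the cycling cells of all 8 samples. Over all cycling cells a count of 0 allows up to 0.783 CPM (counts per 1000000 UMIs), and in the rest of the gate Trex1 lay between 0 and 0.429 CPM. The deletion could therefore not be checked in these cells.

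The label of cycling cells was looked at first with Mki67, which the rule used, and then on genes the rule did not use. Mki67 stood at 162, 131, 217 and 278 CPM in the summed cycling cells of iKO 1 to 4 and at 196, 218, 217 and 430 CPM in those of control 1 to 4, against at most 6.93 CPM in the rest, a contrast that the rule itself made. The 36 other G2 and M genes gave a median of 12.9 UMIs per 10000 in the cycling cells, against 4.32 in the rest of the gate. The 32 S phase genes gave 8.25 per 10000, against 3.14. These are descriptions with no test, since cells were picked by genes of the same programme. Birc5 (survivin, a subunit of the complex that guides chromosome segregation) stood at 120, 77.5, 269 and 204 CPM in iKO 1 to 4 and 144, 320, 142 and 185 CPM in control 1 to 4, with at most 6.69 CPM in the rest. Pcna, the sliding clamp of the replication fork, stood between 114 and 321 CPM in the cycling cells and between 75.8 and 105 CPM in the rest, and was higher in the cycling cells of 8 of 8 samples. Hmgb2, a chromatin protein of dividing cells, stood between 499 and 984 CPM, against 206 to 290 CPM in the rest. All 36 G2 and M genes and all 32 S phase genes were detected in the cycling cells.

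The promoters of 2 late cycle genes are shown here because such promoters are known for the letters CCAAT and TTTGAA. In the 250 bases before the start of each gene (RefSeq, GRCm38.p6, matched by symbol), the letters CCAAT, read on either strand, occur in 23 of the 31 matched G2 and M genes (74.2%), in 16 of 26 S phase genes (61.5%) and in 33.9% of all 32851 promoters of the table. The letters TTTGAA, also on either strand, occur in 9 of the 31 (29.0%), in 11 of 42 type I interferon genes (26.2%) and in 5252 of all promoters (15.99%). The 2 motifs share no overlapping match in the stretches below, which are printed 5′ to 3′ on the gene's strand with both motifs in capitals. Cdc20 activates the ligase that ends mitosis and Cdk1 is the kinase that starts it. The Cdc20 stretch lies at chr4:118437344-118437408 and the Cdk1 stretch at chr10:69352913-69353132, both on the minus strand.
Cdc20: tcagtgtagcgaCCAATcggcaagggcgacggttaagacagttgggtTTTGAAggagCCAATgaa
Cdk1: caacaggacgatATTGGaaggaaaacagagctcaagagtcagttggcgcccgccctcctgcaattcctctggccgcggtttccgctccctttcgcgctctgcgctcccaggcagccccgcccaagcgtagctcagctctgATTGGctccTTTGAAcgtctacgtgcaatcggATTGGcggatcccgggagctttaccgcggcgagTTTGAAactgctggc
A match of letters is not a binding site, and no binding was measured. Cdc20 stood at 13.9, 21.5, 60.8 and 51.1 CPM in the cycling cells of iKO 1 to 4 and at 24.5, 33.9, 27.7 and 18.9 CPM in control 1 to 4, and at most 1.65 CPM in the rest. Cdk1 stood at 55.4, 2.15, 108 and 89.8 CPM in iKO 1 to 4 and at 24.5, 82.4, 71.2 and 105 CPM in control 1 to 4, and at most 3.69 CPM in the rest. Cdc20 was lowest in iKO 1 and Cdk1 in iKO 2, and the genotypes overlapped in both genes.

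The threshold admitted cells of unequal standing. The 95th percentile of the rest of the gate, 12.99 UMIs of the G2 and M genes per 10000, was passed by 76 of the 153 cells (49.7%). With the S phase genes and their own 95th percentile, 8.08 per 10000, 53 cells passed both, 23 passed only the G2 and M level, 26 passed only the S level and 51 passed neither. The cells that passed neither had a median of 3 UMIs of Mki67 and Top2a, the lowest the rule allows, against 14 in the cells that passed both. Just inside the threshold, 6 of the 46 cells with exactly 3 UMIs passed the G2 and M level. Just outside it, 14 of the 189 cells with 2 UMIs did, a share of 7.41%. At 10 UMIs or more, 45 of 46 cells passed.

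The samples differed in how many of their cells had this second line of evidence. In iKO 1 and iKO 2, 1 of 9 and 3 of 22 cells passed the G2 and M level. In iKO 3 and iKO 4, 24 of 32 and 20 of 39 did, and in control 1 to 4, 6 of 12, 5 of 7, 6 of 14 and 11 of 18. The low shares belonged to the pair of samples with the most cycling CD8 T cells, and whether free RNA or joined cells added Mki67 and Top2a UMIs there was not tested. In neutrophils, which do not divide, 3.90% to 13.04% of cells had at least 1 Mki67 or Top2a UMI at median depths of 3571 to 9260 UMIs. At least 3 such UMIs were seen in 2 of 63 neutrophils of iKO 4 and in 0 of 24 to 258 in the other samples, which allows a share of up to 1.16% to 12.5%.

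**Figure D1:**
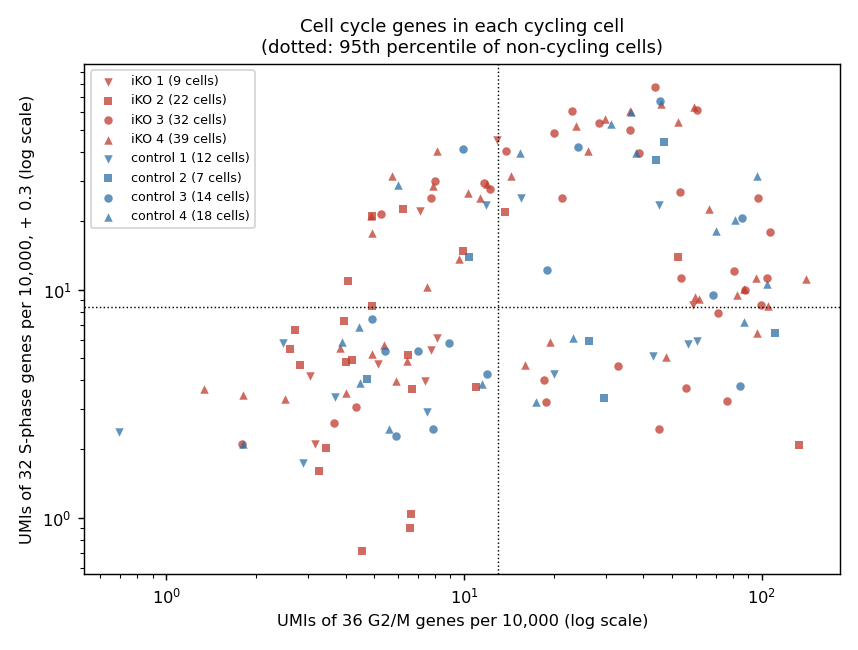
Each point is 1 of the 153 cycling cells, with UMIs of 36 G2 and M genes per 10000 UMIs on the horizontal axis and of 32 S phase genes on the vertical axis, both on log scales, with 0.3 added on the vertical one. Red points are iKO and blue points control cells, shapes mark the sample, and dotted lines are the 95th percentiles of the rest of the gate. The corner under both dotted lines holds 51 cells, 20 of them from iKO 1 and iKO 2.

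Most cycling cells with raised G2 and M genes carried transcripts of complement C1q, as mature macrophages do, and few carried the monocyte gene Ly6c2. To compare cells of unequal depth, each cell was thinned to 5000 UMIs, and a cell counted as C1q-positive with at least 3 UMIs of C1qa, C1qb and C1qc, a complement component that mature macrophages secrete. Of 75 such cells above the G2 and M level, 69 were C1q-positive (92.0%), made up of 27 of 27 in the controls and 42 of 48 in the iKO. Of the 77 below it, 43 were (55.8%). Ly6c2, a surface protein of monocytes fresh from the blood, was seen at 2 UMIs or more in 4 of 75 cells above the level and in 37 of 77 below it. Vcan or Chil3, a matrix proteoglycan and a lectin of inflammatory monocytes, were seen in 4 of 75 and 25 of 77.

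The cells with raised S phase genes alone were also mostly C1q-positive. Of the 26 that passed only the S level, 21 were C1q-positive (80.8%), and of the 51 that passed neither, 22 were (43.1%), against 23.2% to 42.7% in the rest of the gate by sample. Of the iKO cells that passed neither, 24 of 32 had Ly6c2, against 5 of 19 in the controls. By genotype, C1q was seen in 10 of 32 iKO cells that passed neither (31.3%) and in 12 of 19 control cells (63.2%). Pooled over all samples, which contribute unequally to each step, the C1q-positive share was 28.1% at 0 UMIs of Mki67 and Top2a, 34.1% at 1, 41.5% at 2, 60.9% at 3, 61.5% at 4, 73.5% at 5 to 9 and 93.5% at 10 or more. The Ly6c2 share over the same steps was 63.1%, 60.1%, 52.5%, 47.8%, 34.6%, 23.5% and 4.35%. Within a genotype the steps were not even: at 3, 4, 5 to 9 and 10 or more UMIs, the C1q-positive share was 88.9%, 83.3%, 58.3% and 100% in the controls and 54.1%, 42.9%, 81.8% and 89.7% in the iKO. The Ly6c2 share over these steps was 0%, 8.33%, 33.3% and 0% in the controls and 59.5%, 57.1%, 18.2% and 6.90% in the iKO. Cells with more of these UMIs were also deeper before thinning, with medians from 14362 UMIs at 0 to 27476 at 10 or more.

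**Figure D2:**
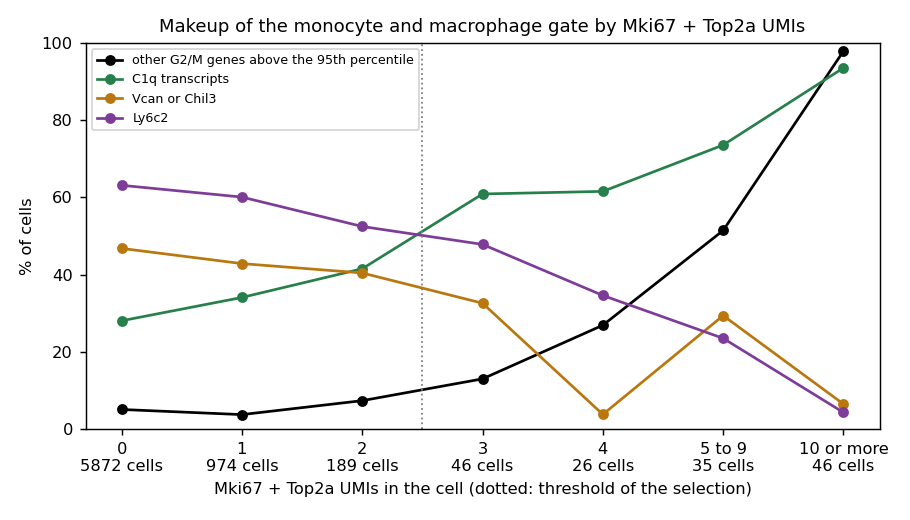
The horizontal axis groups all 7188 gate cells by their UMIs of Mki67 and Top2a, with the number of cells in each step, and the vertical axis is the percentage of those cells. The black line is the share above the 95th percentile of the G2 and M genes, and the coloured lines are shares of cells with C1q, Vcan or Chil3, and Ly6c2 transcripts after thinning to 5000 UMIs. The C1q share climbs from 28.1% to 93.5% while the Ly6c2 share drops from 63.1% to 4.35%.

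By sample, C1q was higher and Vcan or Chil3 lower in the cycling cells of 8 of 8 samples, and Ly6c2 was lower in 7 of 8, iKO 1 having 88.9% against 87.9% in the rest. The C1q-positive share of cycling cells was 44.4%, 54.5%, 84.4% and 69.2% in iKO 1 to 4 and 83.3%, 100%, 69.2% and 88.9% in control 1 to 4. In the rest of the gate it was 23.2% to 42.7%, lower in 8 of 8 samples. T cells and B cells of the same libraries, which do not make C1q, gave 1.05% to 3.00% and 0% to 10% at the same depth. The Vcan or Chil3 share was 6.25% to 33.3% in cycling cells and 38.1% to 63.5% in the rest, lower in 8 of 8 samples. C1qa stood at 1446, 1655, 3541 and 2380 CPM in the cycling cells of iKO 1 to 4 and at 2753, 2796, 1581 and 2114 CPM in control 1 to 4, and its median over the samples' rest of the gate was 766 CPM. C1qb, its partner chain, was likewise higher in the cycling cells of 8 of 8 samples, at 1991 to 4138 CPM. The samples with the lowest C1q shares, iKO 1 and iKO 2, were those with the fewest cells above the G2 and M level.

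Between genotypes, no state share passed the test. The state tests used all 8 samples (exact two-sided permutation tests, adjusted over the 5 states by Benjamini-Hochberg). The C1q-positive share was 63.1% ± 17.4 (SD, n = 4) in the iKO and 85.4% ± 12.8 in the control (exact p = 0.143, adjusted 0.357). The difference was -22.2 percentage points, and -16.0 without iKO 1. The Ly6c2 share was 88.9%, 68.2%, 15.6% and 20.5% in iKO 1 to 4 and 16.7%, 0%, 15.4% and 5.56% in control 1 to 4. The iKO samples were mostly higher, iKO 3 lay within the control range, and the difference of 38.9 percentage points did not pass (exact p = 0.0571, adjusted 0.286). Without iKO 1 it was 25.4. B cells thinned to the same depth had Ly6c2 in 52.3% and 52.9% of cells in iKO 1 and iKO 2, in 8.33% and 11.1% in iKO 3 and iKO 4 and in 5.00% to 25.0% in the controls. T cells at that depth had it in 70.2%, 75.5%, 43.2% and 47.6% of cells in iKO 1 to 4, and in 25.3% to 37.6% in the controls. The control shares of cycling cells were near or under those of B cells. The part of free RNA in the shares of either genotype was not tested. Without thinning the Ly6c2 difference reached the smallest p the design allows, 0.0286. The share with Cxcl9 or Cxcl10, chemokines that draw T cells, was 66.7%, 63.6%, 15.6% and 25.6% in iKO 1 to 4 and 33.3%, 28.6%, 23.1% and 11.1% in control 1 to 4 (exact p = 0.286, adjusted 0.476). For Cxcl9 or Cxcl10 the genotypes differed by 18.9 percentage points, or by 10.9 without iKO 1. The Arg1 share, which marks arginine-consuming macrophages, was 0% to 11.1% in the iKO and 0% to 22.2% in the control, and the Vcan or Chil3 share differed by -4.29 percentage points, each with an adjusted exact p of 0.686.

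**Figure D3:**
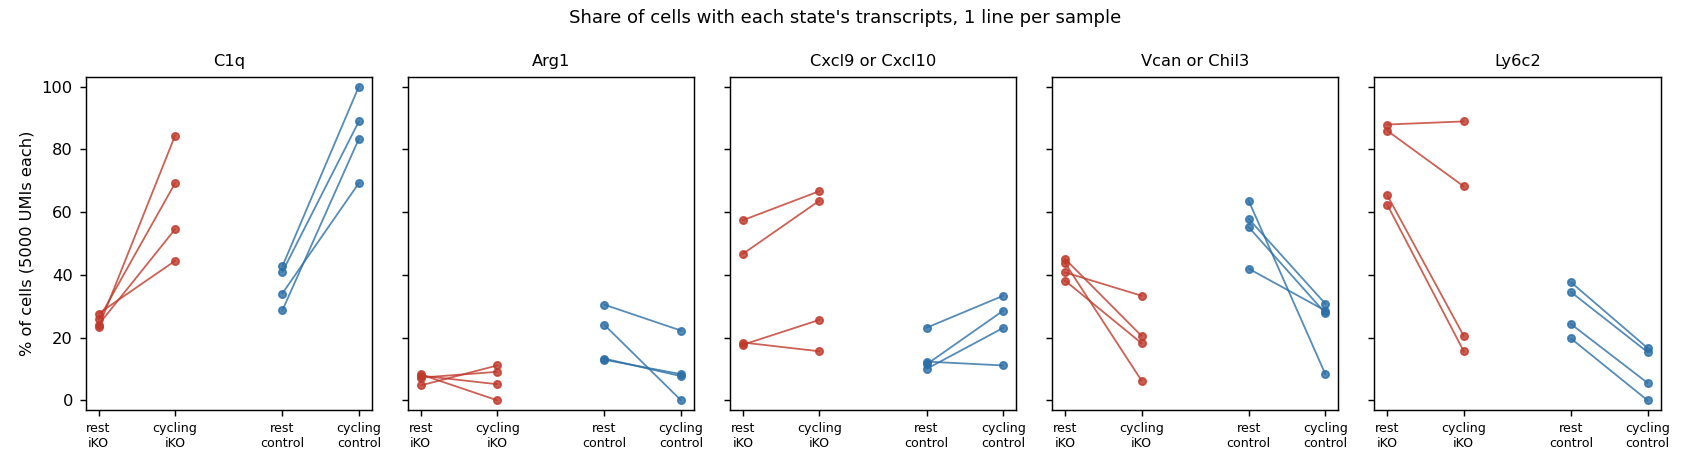
Each line joins the rest of the gate and the cycling cells of 1 sample, iKO in red and control in blue, and the vertical axis is the percentage of cells with each state's transcripts after thinning to 5000 UMIs. The C1q lines rise in all 8 samples and the Vcan or Chil3 lines descend in all 8.

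The share of cycling cells did not differ between genotypes beyond the spread of the samples. It was 0.637%, 1.32%, 5.71% and 3.46% of the gate in iKO 1 to 4 and 2.21%, 2.27%, 3.01% and 1.63% in control 1 to 4. The lowest and the highest shares were both iKO samples, with 95% Wilson intervals of 0.335% to 1.21% in iKO 1 and 4.08% to 7.96% in iKO 3, which cover counting error only. The means were 2.78% ± 2.29 in the iKO and 2.28% ± 0.565 in the control (SD, n = 4, exact two-sided permutation p = 0.714). Without iKO 1 and iKO 2, both remaining iKO samples were above all 4 controls (difference 2.30 percentage points, exact permutation p = 0.133, the smallest this test gives for 2 against 4 samples). That split was chosen after the values were seen. All kept cells were also thinned to 5000 UMIs and the whole rule applied again, and 46 cells passed. Their share of the thinned gate was 0.251%, 0.286%, 1.56% and 1.10% in iKO 1 to 4. In control 1 to 4 it was 1.06%, 1.65%, 0.966% and 0.795% (exact permutation p = 0.457, n = 4). A cell first kept out of the gate by UMIs of an excluded gene could enter once thinning removed them. How many of the 46 were such cells was not counted. Thinning left out 7 to 47 gate cells per sample that were shallower. Counting only cells above the G2 and M level, the shares were 0.0708%, 0.180%, 4.29% and 1.77% in iKO 1 to 4 and 1.11%, 1.62%, 1.29% and 0.998% in control 1 to 4. By that stricter count iKO 1 and iKO 2 lay below every control sample and iKO 3 and iKO 4 above, a description made after the values were seen.

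**Figure D4:**
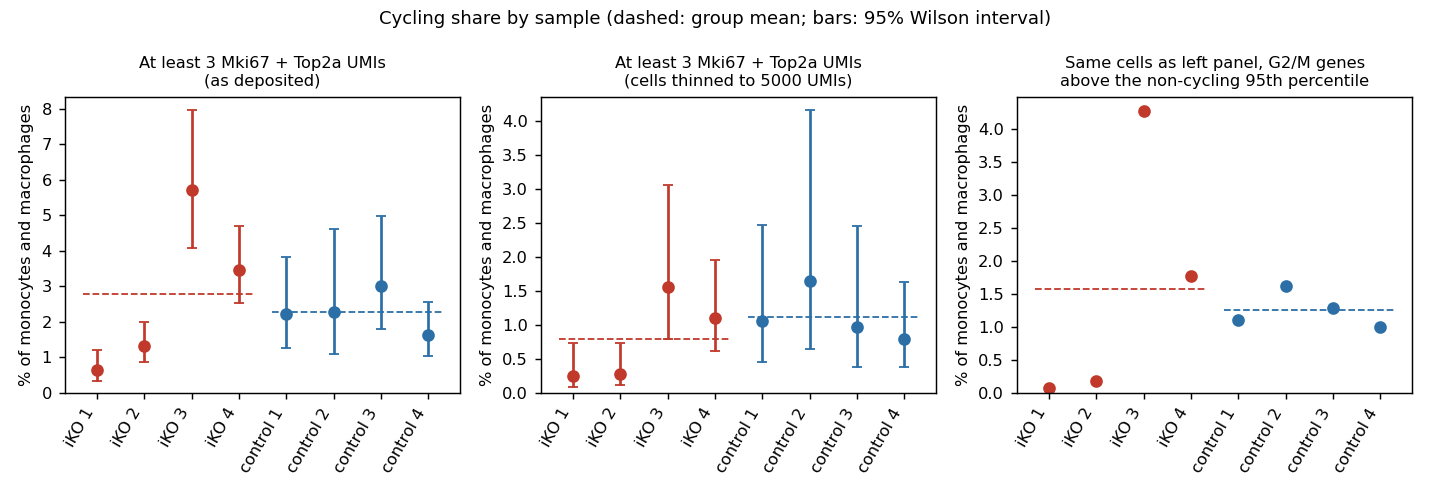
Points are the 8 samples, iKO in red and control in blue, and the vertical axis is the percentage of the monocyte and macrophage gate. All UMIs are used on the left, and only cycling cells that pass the G2 and M level are counted on the right. In the middle all kept cells are thinned to 5000 UMIs and the whole rule, gate included, is applied again. Bars on the left and in the middle are 95% Wilson intervals, and dashed lines are group means. The iKO samples spread more widely than the controls, 0.637% to 5.71% against 1.63% to 3.01% on the left.

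After thinning to 5000 UMIs, a larger part of the iKO cells leaned toward S phase, a call not reached at the other depths. A cell was called S-leaning where its S phase UMIs exceeded its G2 and M UMIs after thinning to 5000, and 28 cells lay within 1 UMI of that cut. The share was 44.4%, 50.0%, 43.8% and 48.7% in iKO 1 to 4 and 33.3%, 0%, 30.8% and 33.3% in control 1 to 4, without overlap. The means were 46.7% ± 3.10 and 24.4% ± 16.3 (SD, n = 4), and the exact two-sided permutation p was 0.0286, the smallest that 4 against 4 samples can give. The control shares rest on 7 to 18 cells per sample, 0% being 0 of 7 cells. Median S phase UMIs per cell were 4, 3, 10 and 6 in iKO 1 to 4 and 2, 2, 3 and 5.5 in control 1 to 4. Those of G2 and M were 3, 3, 18 and 8 in iKO 1 to 4 and 6, 18, 4 and 10.5 in control 1 to 4. In iKO 1 and iKO 2, 6 of 9 and 14 of 22 cells had passed neither the S nor the G2 and M level. The call ended at every other depth: the exact permutation p was 0.714 at 3000 UMIs, 0.0857 at 8000 and 0.0857 without thinning.

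The genotype test across genes used the 6 samples with at least 10 cycling cells, iKO 2, 3 and 4 against control 1, 3 and 4. UMIs were summed over the cycling cells of a sample (252945 to 1057670 UMIs) and tested with edgeR's quasi-likelihood test. In this main test no gene passed an adjusted p of 0.05 (0% of 5551 tested), and the lowest adjusted p was 0.177. An unadjusted p under 0.05 was reached by 374 genes, 2.95% of those tested being higher in the iKO and 3.78% lower. Without iKO 2 it was reached by 536 of 6014 genes and with all 8 samples by 417 of 4859, both directions together. Counts given below for those settings are to be read against these larger backgrounds. DESeq2 called 15 genes on the same sums, 0.27% of those tested, 7 higher and 8 lower in the iKO. With the replicate number as a block, edgeR called 32 (0.576%), although the numbers did not pair the samples. Only numbers 3 and 4 occur in both genotypes of these 6 samples, so the blocked genotype term rests on 2 samples per genotype. The genes described below by name had their values seen first or are the most abundant of their list, and none is a call of the main edgeR test.

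Ccnd1 (cyclin D1, which carries growth signals to the cell cycle kinases) and Ddit4 (an inhibitor of the growth kinase mTOR that hypoxia and stress induce) shared the lowest adjusted p. Ccnd1 stood at 282, 362, 322 and 248 CPM in the cycling cells of iKO 1 to 4 and at 87.6, 107, 102.8 and 98.6 CPM in control 1 to 4. All 4 iKO samples lay above all 4 controls, including the 2 samples the fit did not use. The log2 fold change was 1.62 ± 0.23 (SE), with an adjusted p of 0.177 by edgeR and 0.000474 by DESeq2. With all 8 samples in edgeR the adjusted p was 0.0189 and Ccnd1 was the single gene called. In the rest of the gate Ccnd1 was higher in the iKO by a like amount, log2 1.67 ± 0.36, with an adjusted p of 0.0714, and the interaction below did not pass. Within each sample it was higher in cycling cells than in the rest, in 8 of 8. Summed T cell markers overlapped between genotypes in cycling cells, at 64.2 to 157 CPM in the iKO and 38.5 to 166 CPM in the controls. NK and cytotoxic markers stood at 71.1 to 657 CPM and 17.5 to 75.1 CPM. At least 3 UMIs of T and NK markers together were seen in 53.1% to 81.8% of cycling cells in the iKO samples and 14.3% to 42.9% in the controls. Among the 68 cells under that level, Ccnd1 stood at 239 and 143 CPM in iKO 3 and iKO 4 and at 69.4, 119, 103.2 and 129 CPM in control 1 to 4. In iKO 1 and iKO 2 those cells numbered 2 and 4 and had 0 UMIs of it, and over all 8 samples the log2 fold change was 0.29.

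Ddit4 stood at 0, 4.31, 2.29 and 0.945 CPM in iKO 1 to 4 and at 45.5, 4.85, 107 and 39.8 CPM in control 1 to 4. Control 2, which the fit did not use, was close to the iKO level. The log2 fold change was -4.79 ± 0.65 (SE), with an adjusted p of 0.177 by edgeR and 3.1e-05 by DESeq2. In the rest of the gate Ddit4 fell, log2 -1.60 ± 0.13 with an edgeR adjusted p of 0.0073. Cd72, an inhibitory receptor of macrophages and B cells, stood at 314, 288, 344 and 268 CPM in iKO 1 to 4 and at 109, 92.1, 94.9 and 25.2 CPM in control 1 to 4, again with no overlap. Its log2 fold change was 1.96 ± 0.45 (adjusted p = 0.499 by edgeR and 0.0256 by DESeq2). Among the cells low in T and NK markers, Cd72 stood at 0, 21.1, 451 and 246 CPM in iKO 1 to 4 and at 143, 81.0, 181 and 33.2 CPM in control 1 to 4, so the groups overlapped, and the log2 fold change was 1.03 (edgeR adjusted p = 0.999). Rps10, a ribosomal protein gene, was lower in all 4 iKO samples, at 605 to 857 CPM against 1348 to 1656 CPM, by a log2 fold change of -0.99 ± 0.17 (adjusted p = 0.329 by edgeR). It fell in the rest of the gate as well, by 1.11 on the log2 scale with an edgeR adjusted p of 0.0034. Genotype is also pool here, and copies of ribosomal protein genes can share reads.

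**Figure D5:**
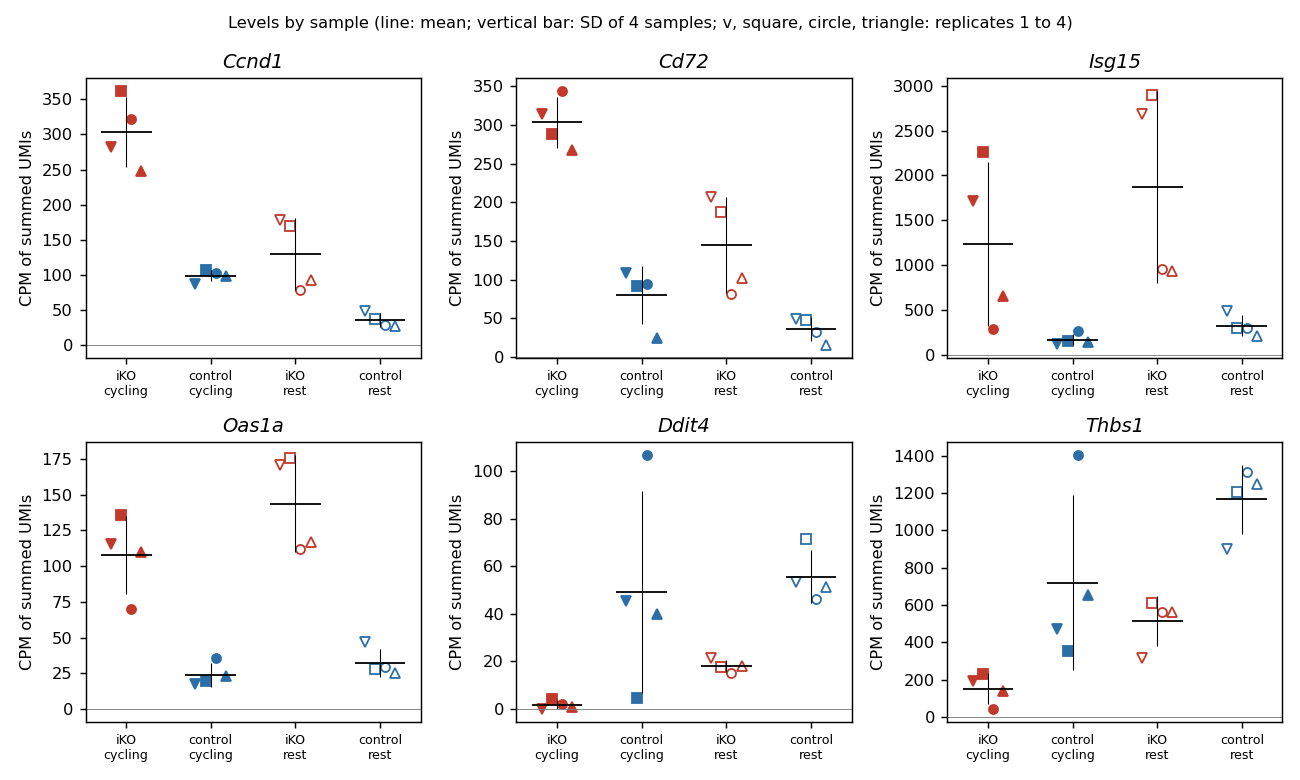
Each panel is 1 gene and each point 1 sample, in CPM of the summed UMIs, for cycling cells (filled) and the rest of the gate (open), iKO in red and control in blue. Horizontal lines are means and vertical bars SDs of 4 samples. In cycling cells Ccnd1, Cd72, Isg15 and Oas1a are higher in all 4 iKO samples than in all 4 controls, and Ddit4 and Thbs1 are lower.

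Genes of the cycle itself gave no call in either phase. Of the 27 S phase genes tested, 22 were above 0 and 5 below, with a median log2 fold change of 0.48, against -0.01 over all 5551 genes. At an unadjusted p under 0.05, 3 were higher in the iKO (11.1%, against 2.95% of all genes) and 0 lower. These were subunits of the helicase that unwinds DNA at replication forks. Mcm3 stood at 64.7, 73.2, 149 and 139 CPM in iKO 1 to 4 and at 52.5, 63.0, 75.1 and 62.9 CPM in control 1 to 4 (log2 0.88 ± 0.32, edgeR adjusted p = 0.649). Mcm5 and Mcm7 had log2 fold changes of 0.99 ± 0.34 and 0.98 ± 0.31 (edgeR adjusted p = 0.637 and 0.572). The high values were those of iKO 3 and iKO 4, and without iKO 2 the median of the list was 0.77 with 8 genes at an unadjusted p under 0.05. Of the 33 G2 and M genes tested, 11 were above 0 and 22 below, with a median of -0.16 and 0 at an unadjusted p under 0.05 in either direction. Without iKO 2 the median was 0.17, with 3 genes higher and 0 lower at that p. Of the 11 replication histone genes tested, 8 were below 0, with a median of -0.37. H4c9, 1 of several near-identical genes for histone H4, stood at 18.5, 10.8, 25.2 and 21.8 CPM in iKO 1 to 4 and at 59.5, 53.3, 51.4 and 52.4 CPM in control 1 to 4 (log2 -1.49 ± 0.34, edgeR adjusted p = 0.499). Most replication histone transcripts lack the poly(A) tail this assay captures, and reads can be shared between their copies, so their levels are uncertain.

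Of the 16 cell cycle regulators tested, 8 were on each side of 0. At an unadjusted p under 0.05, 2 were higher (12.5%, against 2.95% of all genes) and 1 lower (6.25%, against 3.78%). Of the 4 most abundant, Ccnd1 is described above, and the other 3, which restrain the cycle, overlapped between genotypes. Cdkn1a, the p21 inhibitor of cyclin-dependent kinases, stood at 1095, 1003, 310 and 340 CPM in iKO 1 to 4 and at 399, 751, 463 and 377 CPM in control 1 to 4. It was highest in iKO 1 and iKO 2, where few cells passed the G2 and M level. Btg2, an antiproliferative gene, was lower in cycling cells than in the rest in 8 of 8 samples, with a range of 365 to 758 CPM against 814 to 1026 CPM. Btg1, its relative, was lower in 7 of 8. The growth factor receptor list was lower in the cycling cells of 8 of 8 samples in its summed level, 1399 to 1959 CPM against 1813 to 2382 CPM. Csf1r, part of the rule, stood at 262 to 366 CPM in cycling cells and 335 to 424 CPM in the rest. Csf2ra, a chain of the receptor for granulocyte-macrophage colony-stimulating factor, stood at 296, 334, 190 and 244 CPM in iKO 1 to 4 and 175, 126, 206 and 195 CPM in control 1 to 4, with overlap. None of the 14 receptors tested had an unadjusted p under 0.05. Without iKO 2, 3 were lower at that p, and with all 8 samples 1 was higher.

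Interferon-stimulated genes were higher in the iKO, as a group and with no single edgeR call. Of the 49 type I interferon response genes tested in cycling cells, 49 were above 0, with a median log2 fold change of 1.53. At an unadjusted p under 0.05, 31 were higher (63.3%, against 2.95% of all genes tested) and 0 lower. The median of the same genes in the rest of the gate was 1.52. Without iKO 2 the median was 0.88 with 22 genes at that p, and with all 8 samples it was 1.67 with 41, so iKO 2 carried a large part of the size. DESeq2 called 3 of them. In summed level the list reached 20055, 24186, 8093 and 11010 CPM in iKO 1 to 4 and 5558, 6265, 7642 and 2863 CPM in control 1 to 4, with no overlap. It was lower in the cycling cells than in the rest in 8 of 8 samples. These lists were drawn up with earlier results of these data known.

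Isg15, a ubiquitin-like protein induced by interferon, stood at 1714, 2262, 290 and 652 CPM in iKO 1 to 4 and at 123, 155, 257 and 134 CPM in control 1 to 4. The groups did not overlap, but iKO 3 was close to control 3. Its log2 fold change was 2.59 ± 0.71 (adjusted p = 0.499 by edgeR and 0.0316 by DESeq2), and without iKO 2 it was 1.41. Oas1a, which makes the activator of RNase L and has close relatives beside it, stood at 116, 136, 69.9 and 110 CPM in iKO 1 to 4 and at 17.5, 19.4, 35.6 and 23.1 CPM in control 1 to 4 (log2 2.00 ± 0.38, adjusted p = 0.472 by edgeR and 0.0254 by DESeq2). Usp18, which removes Isg15 and damps interferon signalling, stood at 92.4, 121, 34.4 and 42.5 CPM against 10.5, 9.69, 11.9 and 2.10 CPM (log2 3.05 ± 0.77, or 2.37 without iKO 2, adjusted p = 0.499 by edgeR and 0.0495 by DESeq2). Ifi27l2a and Bst2 (tetherin, which holds budding virus at the membrane), among the most abundant of the list, had log2 fold changes of 1.53 ± 0.41 and 1.07 ± 0.25 (edgeR adjusted p = 0.499 for both). Among the cells low in T and NK markers, over all 8 samples, Isg15, Oas1a and Ifi27l2a had 3.02, 1.84 and 1.49 (edgeR adjusted p = 0.999 for each). Bst2 had 1.66 there (edgeR adjusted p = 0.932). In the rest of the gate Oas1a and Ifi27l2a rose, log2 1.97 ± 0.28 and 1.64 ± 0.21 with edgeR adjusted p of 0.0368 and 0.027. The rest held 130 called genes of 11474 (1.13%).

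Of the promoters of these genes, 50% hold the letters of the interferon-stimulated response element, and those of both genes described first are shown. The letters GAAA, then any 2 bases, then GAAA, on either strand within the 250 bases before the start, occur in 21 of 42 matched genes of the list, in 3.39% of the promoters of all genes tested and in 2.98% of all promoters. Overlapping matches run together in the capitals below (RefSeq, GRCm38.p6, minus strand for both). The Isg15 stretch lies at chr4:156200863-156200908 and the Oas1a stretch at chr5:120907526-120907557.
Isg15: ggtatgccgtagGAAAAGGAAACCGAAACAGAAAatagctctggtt
Oas1a: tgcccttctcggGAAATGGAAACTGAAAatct

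Of 19 interferon gamma response genes tested, 16 were above 0 with a median of 1.11. At an unadjusted p under 0.05, 6 were higher (31.6%, against 2.95% of all genes). Without iKO 2 the median was 0.22 with 2 higher and 2 lower. Cxcl10, a chemokine for T cells that both interferon types induce, stood at 1372, 2973, 461 and 735 CPM in iKO 1 to 4 and at 49.0, 9.69, 170 and 315 CPM in control 1 to 4 (log2 2.89 ± 0.80, or 1.65 without iKO 2, edgeR adjusted p = 0.499). Among the cells low in T and NK markers, over all 8 samples, its log2 fold change was 3.15 (edgeR adjusted p = 0.999). Cxcl9, which depends on interferon gamma, overlapped, at 1608, 932, 230 and 332 CPM against 665, 329, 102.8 and 136 CPM. All 16 genes of the MHC class I list were above 0 with a median of 0.54, and 0 had an unadjusted p under 0.05; the median was 0.06 without iKO 2, and with all 8 samples it was 0.71 with 7 genes at that p. B2m, the shared light chain, stood at 4370, 4081, 2356 and 2668 CPM in iKO 1 to 4 and at 2714, 2626, 2882 and 1680 CPM in control 1 to 4. The MHC class II list went the other way, with 10 of 10 below 0 and a median of -0.46, also with 0 at an unadjusted p under 0.05, or 5 without iKO 2 (median -0.59). Cd74, the invariant chain that guards the class II groove, stood at 10168, 7773, 3503 and 7286 CPM against 8370, 10969, 11603 and 7265 CPM (log2 -0.63 ± 0.32, edgeR adjusted p = 0.828).

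Hypoxia and tissue remodelling genes were lower in the iKO, again without a call in the main edgeR test. Of the 22 hypoxia and glycolysis genes tested, 21 were below 0 with a median of -0.59, and 9 were lower at an unadjusted p under 0.05 (40.9%, against 3.78% of all genes). Without iKO 2 the median was -0.64 with 13 lower at that p. In the rest of the gate their median was -0.40. Slc2a1, a glucose transporter, and Bnip3, a mitophagy receptor, had log2 fold changes of -1.57 ± 0.41 and -1.51 ± 0.38 (edgeR adjusted p = 0.499 for both). Among the cells low in T and NK markers, over all 8 samples, the log2 fold changes were -0.93 and -0.64. The glycolytic enzymes that lead the list in abundance differed less. Gapdh stood at 2458, 2084, 2556 and 2475 CPM against 2371, 2674, 2669 and 3160 CPM.

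All 12 alternative activation and tissue remodelling genes tested were below 0, with a median of -0.85 and 3 lower at an unadjusted p under 0.05 (25%, against 3.78% of all genes), which are the 3 named next. Without iKO 2 the median was -0.66 with 5 lower at that p, and with all 8 samples it was -0.18 with 3. Thbs1 (thrombospondin, a matrix protein that restrains vessels) stood at 194, 232, 42.4 and 137 CPM in iKO 1 to 4 and at 473, 354, 1404 and 652 CPM in control 1 to 4, without overlap. Its log2 fold change was -2.72 ± 0.62 (adjusted p = 0.499 by edgeR and 0.0077 by DESeq2), and in the rest of the gate it fell by 1.04 on the log2 scale (edgeR adjusted p = 0.0338). Mmp12, the macrophage elastase, stood at 9.24, 51.7, 53.9 and 16.1 CPM against 130, 58.1, 573 and 79.7 CPM (log2 -2.79 ± 0.79, adjusted p = 0.499 by edgeR and 0.0386 by DESeq2), and control 3 alone held most of the control level. Among the cells low in T and NK markers, over all 8 samples, the log2 fold change was -0.15 for Thbs1 and -0.36 for Mmp12 (edgeR adjusted p = 0.999 for both), and the part of these markers' cells in the difference was not tested. Vegfa, the growth factor for blood vessels, stood at 18.5, 62.4, 31.0 and 7.56 CPM in iKO 1 to 4 and at 126, 48.5, 130 and 101 CPM in control 1 to 4 (log2 -1.998 ± 0.582, edgeR adjusted p = 0.528). Control 2, outside the fit, lay within the iKO range. Without iKO 2 the log2 fold change of Vegfa was -2.72 (edgeR adjusted p = 0.0614). Of 20 dissociation stress genes tested, 17 were below 0 with a median of -0.43 and 5 lower at an unadjusted p under 0.05 (25%, against 3.78% of all genes). Hspa1a, a heat shock chaperone, stood at 27.7, 43.1, 14.9 and 17.0 CPM against 175, 19.4, 340 and 39.8 CPM, with overlap (log2 -3.03 ± 0.75, adjusted p = 0.499 by edgeR and 0.0146 by DESeq2). The part of tissue handling in the hypoxia and remodelling values was not tested.

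Genes of macrophage and monocyte identity went in both directions, and most of those named here overlapped between genotypes. The macrophage and complement list had a median of 0.03 with 11 of 21 above 0, and the monocyte list 0.06 with 9 of 13 above 0, or 0.25 and -0.53 without iKO 2. At an unadjusted p under 0.05, 3 monocyte genes were higher (23.1%, against 2.95% of all genes) and 2 lower (15.4%, against 3.78%). In the macrophage and complement list 2 were higher (9.52%) and 1 lower (4.76%). Apoe, a lipid carrier of mature macrophages, stood at 1197, 465, 4099 and 2949 CPM in iKO 1 to 4 and at 4455, 10403, 2518 and 3930 CPM in control 1 to 4. Plac8 stood at 1987, 2805, 394 and 729 CPM against 1138, 43.6, 767 and 138 CPM, and Ccr2, the receptor that brings monocytes into tissue, at 1012, 829, 238 and 446 CPM against 389, 329, 498 and 524 CPM. The macrophage genes were low and the monocyte genes high in iKO 1 and iKO 2. Ly6c2 was the exception among the monocyte genes named here, at 1400, 2107, 207 and 317 CPM in iKO 1 to 4 and at 66.5, 29.1, 94.9 and 39.8 CPM in control 1 to 4, with no overlap. Its log2 fold change was 3.68 ± 0.91 in cycling cells (edgeR adjusted p = 0.499) and 2.26 ± 0.37 in the rest (edgeR adjusted p = 0.0415). In cycling cells it was 1.96 without iKO 2. Among the cells low in T and NK markers, over all 8 samples, it was 5.17 (edgeR adjusted p = 0.932). Of 15 chemokines tested, 8 were above 0, with a median of 0.25, or -0.14 without iKO 2. At an unadjusted p under 0.05, 3 chemokines were higher (20%, against 2.95% of all genes) and 1 lower (6.67%, against 3.78%). Without iKO 2, 2 were higher and 2 lower. Of 13 p53 and DNA damage genes tested, 7 were above 0, with a median of 0.01, or -0.38 without iKO 2. At an unadjusted p under 0.05, 0 were higher and 2 lower (15.4%, against 3.78% of all genes).

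Whether the genotype difference itself differed between cycling cells and the rest was tested with an interaction term in the same 6 samples, with sample as a block. No gene passed (0% of 10503 tested, lowest edgeR adjusted p 0.995), 424 had an unadjusted p under 0.05, and DESeq2 also called 0. For Ccnd1 the extra change in cycling cells was 0.05 ± 0.32 on the log2 scale, and for Ddit4 it was -3.19 ± 0.69, both with an edgeR adjusted p above 0.99. For the type I interferon list the median extra change was -0.08. The missing calls do not show that the cells responded alike.

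Transcripts of other cell types were present in the cycling cells and also in the rest of the gate. At least 3 UMIs of T or NK markers were seen in 85 of the 153. By sample this was 53.1% to 81.8% of cycling cells in the iKO and 14.3% to 42.9% in the control. In the rest it was 57.8% to 74.6% and 17.9% to 22.5%. Of the 12 T cell markers, 11 were detected, with a summed level of 64.2 to 157 CPM in the iKO samples and 38.5 to 166 CPM in the controls, and Cd3e, the undetected one, was at 0 by the rule. The 10 NK and cytotoxic markers were all detected, at 71.1 to 657 CPM in the iKO and 17.5 to 75.1 CPM in the control, highest in iKO 2. In the rest, the T cell markers stood at 101 to 119 CPM in the iKO and 57.3 to 76.9 CPM in the control. The NK and cytotoxic markers stood there at 102 to 247 CPM and 38.9 to 64.2 CPM. Neutrophil markers, 11 of 13 detected, stood at 2906, 4419 and 3781 CPM in iKO 2, iKO 3 and control 4 and at 85.1 to 245 CPM in the other samples. In the rest of the gate they stood at 763 to 4853 CPM in the iKO and 2730 to 8393 CPM in the control. Of the 153 cells, 8 carried much RNA of another lineage, by minimums set after the values were seen. Of these, 5 had at least 20 UMIs of S100a8 and S100a9, 2 had at least 5 of the melanoma genes Pmel and Dct, and 1 had at least 10 of Gzmb. The melanoma RNA was up to 49 UMIs in 1 cell of iKO 3. Whether these cells are joined pairs, cells that took up others or free RNA was not tested; Scrublet scored 2 of the 153 over 0.25, and none was removed for the values above.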

How the data were processed

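Single-cell libraries of 8 hashtagged samples were made with the 10x 3′ kit, version 3 chemistry, per the labels' protocols. The deposited matrices hold UMI counts per gene and cell that the authors made with Cell Ranger 7.1.0, per the file headers, on GRCm39, per the submitters' processing notes. The sources used here do not say how hashtags were assigned. The 92 spike-in features and 4 hashtag features were left out, and 22490 of 23731 barcodes passed the gene and mitochondrial limits. Of the barcodes, 45 occurred in both pools, none of them among the 153 cells. Depth was 4989 to 88137 UMIs per cycling cell.

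Counts were summed per sample and tested with edgeR 4.0.16 (TMM, filterByExpr, quasi-likelihood, Benjamini-Hochberg, threshold 0.05, R 4.3.3), with DESeq2 1.42.0 as an alternative. The scripts were tested on simulated data. Shares were compared by exact permutation over samples (scipy 1.17.1). State tests had been planned for samples with 20 cycling cells; no control sample had so many, and all 8 were used. Genes were to be named from the edgeR calls, of which there were 0, and from each list's most abundant members; others were picked after their values were seen. Members and lists were chosen with earlier results of these data known.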

Additional observations from a re-analysis of the deposited data

Results flagged for a closer look

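In 4 of 88 groups of 4 samples checked, 1 sample lay so far from the other 3 that its gap, as a share of the group's whole range, passed Dixon's 95% critical value. Chance flags about 1 in 20 such groups, and these 4 flags are no more than that. All 4 lay among the controls. Control 1 had Vcan or Chil3 in 8.33% of its cycling cells, against 27.8% to 30.8% in the other controls (gap 0.867 of the range). Control 2 had 0% S-leaning cells, against 30.8% to 33.3% (gap 0.923), from 7 cells. In control 3, Mmp12 stood at 573 CPM, against 58.1 to 130 CPM (gap 0.861). In control 4, Mki67, a gene of the selection rule, stood at 430 CPM, against 196 to 218 CPM (gap 0.906).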

How the results depend on the processing

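The difference in cycling share (iKO minus control, percentage points) turned to -0.0267 with a minimum of 2 Mki67 and Top2a UMIs, to -0.861 with cells holding other lineages' markers removed, which left 2 cycling cells, and lay between -0.479, without iKO 3, and 1.21 when 1 sample was left out. At equal depth it turned to 0.371 at 8000 UMIs and 0.0210 with the minimum of 2. No share difference passed in any of these. For Vcan or Chil3 it turned to 9.81 at 3000 UMIs, 3.85 at 8000, 3.99 without thinning, and lay between -9.47 and 0.146, without iKO 3, when 1 sample was left out; for Arg1 it lay between -6.42 and 0.991, without control 4, when 1 sample was left out, and was -7.47 without thinning. For Ly6c2 the unadjusted exact permutation p reached 0.0286 at 8000 UMIs (47.9) and without thinning (48.7). The S-leaning difference was 3.62 at 3000 UMIs, 13.9 at 8000 and 18.2 without thinning, and 14.2 to 25.4 with 1 sample left out, where 3 against 4 samples cannot pass. Genes called between genotypes numbered 15 by DESeq2, 148 with no filter on low counts, 1 with all 8 samples (Ccnd1), and 0 to 10 with 1 sample left out, the 10 being without iKO 2. Those 10 were Ccnd1 and Fcrls, higher in the iKO, and Ddit4, Bhlhe40, Mxi1, Slc2a1, Bnip3, Hilpda, Ndrg1 and Nos2, lower. The replicate block gave 32 calls (0.576% of genes), which rest on the 2 replicate numbers that both genotypes share in that fit. With all 8 samples it gave 1, Ifit2. The replicate numbers did not pair the samples. Correlations of same-numbered deviations ran from -0.33 to 0.09 in cycling cells. In the whole gate they ran from -0.15 to 0.36, and there numbers 1 and 4 correlated best with their own. The interaction gave 26 calls with no filter and 0 to 1 with 1 sample left out, the 1 being Klf2 without control 1. Of 380 alternative values of the named genes, 329 stayed on their side of the threshold, 51 passed it and 0 changed direction. The cause of these moves was not tested. Gene tests with a minimum of 5 UMIs, with other lineages' marker cells removed, or with the rule reapplied after thinning were not run, since too few cells were left. Alternatives with all 8 samples, with T and NK marker cells removed and without iKO 1 and iKO 2 were chosen after seeing the data. The control sums tested held 252945 to 476836 UMIs, and how depth bears on the gene results was not tested.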
